A study of Mus musculus with 4 samples.

Results

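The genes described here are 9 genes that mark basophils and mast cells: Cpa3, Mcpt8, Prss34, Hdc, Fcer1a, Ms4a2, Cd200r3, Kit and Gata2. They were taken by symbol from the 30176 genes that had a transcript cluster, the array's unit of measurement, annotated to them alone, and each of the 9 had exactly 1 such cluster. Signals were measured in splenocyte RNA of 3-week-old DBA/1 mice on Clariom D mouse arrays, with 1 array for each exposure and sex. The BBP pools were made from 6 female and 4 male offspring of dams that drank water with the plasticizer benzyl butyl phthalate (BBP) from before mating until weaning, and the control pools from 12 female and 4 male offspring of dams on normal drinking water. No animal had been immunized with collagen when its spleen was taken. RNA of the animals of a pool was combined before hybridisation, so that there is no replicate within a sex, the spread between animals is not seen, and an effect of the litter cannot be told apart from one of the exposure.

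Basophils and mast cells are rare granulocytes that carry IgE on their high-affinity receptor. Antigen that crosslinks this IgE releases histamine, proteases and lipid mediators from them, and basophils are also a source of IL-4. Basophils circulate and finish their development in bone marrow and spleen, where a progenitor shared by basophils and mast cells has been described in mice. Mast cells instead mature in tissues under the influence of stem cell factor, the ligand of Kit. Both lineages use the transcription factor GATA2, and several of their granule and receptor genes have GATA-binding sites near the start site.

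The sequence before the start site is shown for members from each of the patterns described below, because GATA factors are known regulators of these lineages. Each line gives the 100 bases before a RefSeq start site (GRCm38.p6) on the gene's strand, from 5′ to 3′, with a GATA motif in capitals.
Cpa3 (chr3:20242182-20242281, minus strand): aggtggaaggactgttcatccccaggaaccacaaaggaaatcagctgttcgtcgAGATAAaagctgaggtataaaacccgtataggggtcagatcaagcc
Prss34 (chr17:25298294-25298393, plus strand): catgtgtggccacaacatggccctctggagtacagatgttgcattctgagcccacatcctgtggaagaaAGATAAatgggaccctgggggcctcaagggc
Ms4a2 (chr19:11623720-11623819, minus strand): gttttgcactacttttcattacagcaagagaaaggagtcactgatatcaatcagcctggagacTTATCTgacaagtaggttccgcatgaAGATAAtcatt
Fcer1a (chr1:173227230-173227329, minus strand): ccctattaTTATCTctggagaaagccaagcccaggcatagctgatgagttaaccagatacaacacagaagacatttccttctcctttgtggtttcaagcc
Cd200r3 (chr16:44943578-44943677, plus strand): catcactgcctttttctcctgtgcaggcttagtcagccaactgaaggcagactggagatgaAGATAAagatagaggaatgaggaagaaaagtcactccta
Mcpt8 (chr14:56085198-56085297, minus strand): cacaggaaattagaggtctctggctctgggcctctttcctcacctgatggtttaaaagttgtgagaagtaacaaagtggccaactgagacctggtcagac
Kit (chr5:75574887-75574986, plus strand): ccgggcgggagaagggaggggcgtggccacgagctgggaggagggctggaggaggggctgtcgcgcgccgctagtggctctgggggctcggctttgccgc
The motif was searched as AGATAA or TGATAA on both strands in windows running from 250 bases before to 50 bases after the start, so that TTATCT in capitals is AGATAA on the other strand. All 9 members were found among the RefSeq promoters, and 5 of them held the motif, against 21.0% of the 27025 genes with a promoter there. In Cpa3 its first base lay at -46 from the start, in Prss34 at -31 and in Fcer1a at -92. Ms4a2 held it at -224, -37 and -11 and Cd200r3 at -115 and -39, of which -224 and -115 lie outside the printed stretch. Mcpt8, Hdc, Kit and Gata2 had no such letters in these windows. A STAT motif, TTCNNNGAA, was found in 0 of 9 members and in 9.55% of all genes. These are matches of letters only, and binding was not measured.

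No member passed the test for a difference between the BBP and control pools, but the members fell into a pair of patterns. Cpa3 and Kit, which are also expressed by progenitors, had higher signals in BBP females than in control females and in BBP males than in control males, by 1.74-fold and 1.62-fold for Cpa3 and by 1.27-fold and 1.30-fold for Kit. The basophil proteases Mcpt8 and Prss34, the IgE receptor chain Ms4a2 and the histamine enzyme Hdc had lower signals in the BBP females and higher signals in the BBP males than in their controls. The IgE-binding chain Fcer1a and the basophil receptor Cd200r3 were not measured above background on any array.

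A gene was analysed where its signal was at least 100 in at least 2 arrays, which held for 6 of the 9 members and for 10614 genes in all. Negative control features had medians of 51.1 to 64.1 on the 4 arrays, and the median signal of the genes analysed was 479.1 in BBP females, 519.1 in control females, 473.1 in BBP males and 533.6 in control males. The test was limma on log2 signals, with terms for exposure and for sex, adjusted over all 10614 genes after Benjamini and Hochberg, and a gene passed at an adjusted p under 0.05. In RNA of a whole tissue, fewer cells of a type and less RNA per cell cannot be told apart.

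**Figure D1:**
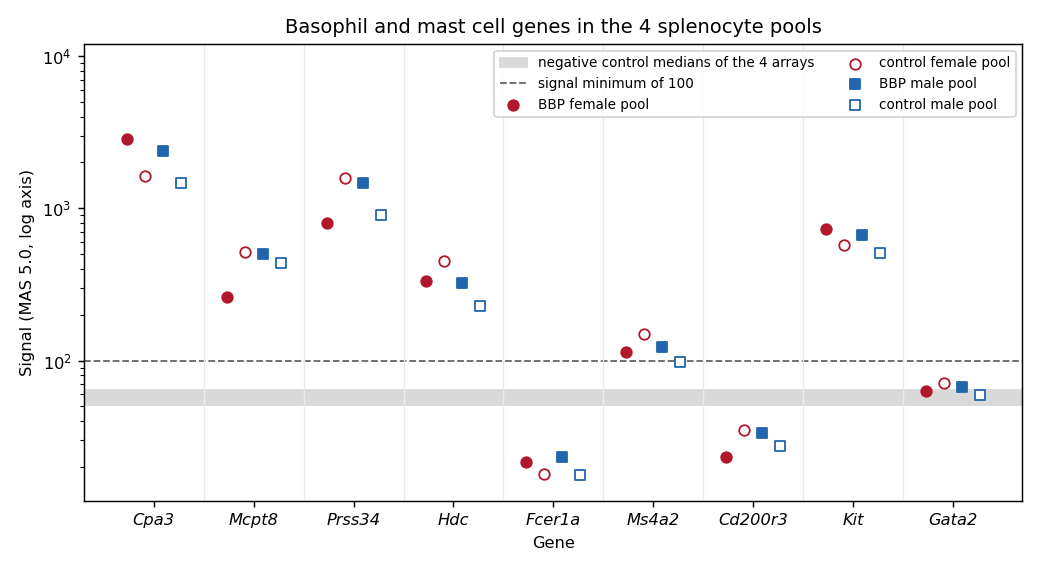
Signal of the 9 basophil and mast cell genes (log axis) in the BBP female, control female, BBP male and control male pool, 1 array each, with the range of the negative control medians in grey and the signal minimum of 100 as a dashed line. Cpa3 and Kit lie higher in both filled symbols than in the open symbol of the same colour, while Mcpt8, Prss34, Hdc and Ms4a2 lie lower in BBP than in control females and higher in BBP than in control males. Probes of different genes differ in brightness, so that genes should not be ranked against each other.

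Among the granule genes, Cpa3 encodes carboxypeptidase A3, an exopeptidase of mast cell granules that basophils and their progenitors also express. Cpa3 had a signal of 2842.5 in BBP females, against 1631.7 in control females. In males its signal was 2366.0 in the BBP pool and 1462.5 in the control pool. Each BBP pool was therefore above the control pool of its sex, as for 19.9% of the genes analysed. The difference was 0.75 ± 0.14 on the log2 scale (SE of limma, 2 BBP and 2 control arrays), with a limma p of 0.00313 before and 0.0634 after adjustment.

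Mcpt8 encodes a serine protease that in mice is a hallmark of basophils. Mcpt8 had a signal of 262.3 in BBP females, against 517.9 in control females, a 1.97-fold lower value. In BBP males it was 503.1, against 436.2 in control males, or 1.15-fold higher. The BBP female pool was thus the low one, while the other 3 pools lay close together. The limma estimate was -0.39 ± 0.29 (SE) on the log2 scale, with an adjusted p of 0.445.

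Prss34 encodes a tryptase-like protease, likewise produced by mouse basophils. The BBP female pool gave 802.1 for Prss34, 1.98-fold below the 1592.0 of the control female pool. The BBP male pool gave 1458.1, which was 1.61-fold above the 907.4 of the control male pool. The low pools were those of BBP females and control males, and the high pools those of BBP males and control females. Averaged over the sexes little was left, with a limma estimate of -0.15 ± 0.40 (SE) on the log2 scale and an adjusted p of 0.838.

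Hdc encodes histidine decarboxylase, the enzyme that makes histamine from histidine. Its signal was 331.4 in BBP females and 450.4 in control females, 1.36-fold lower with exposure. In BBP males it was 321.4, against 229.6 in control males, 1.40-fold higher with exposure. Here the BBP pools of both sexes were nearly equal, and the control pools lay on either side of them. The limma estimate was 0.02 ± 0.24 (SE) on the log2 scale, with an adjusted p of 0.966.

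The high-affinity IgE receptor consists of an α chain that binds IgE (Fcer1a), a β chain that amplifies the signal (Ms4a2) and γ chains that start it (Fcer1g). Fcer1a had signals of 21.7 in BBP females, 17.9 in control females, 23.2 in BBP males and 17.8 in control males, below the median of the negative controls on all 4 arrays, and no fold is given for it. Ms4a2 had a signal of 114.4 in BBP females, 1.30-fold below the 149.0 of control females. In BBP males Ms4a2 reached 123.5, 1.26-fold above the 97.8 of control males. The control pools lay at both ends of the 4 values, and that of control males was below the signal minimum. By limma the difference of Ms4a2 was -0.02 ± 0.21 (SE) on the log2 scale, with an adjusted p of 0.960. Fcer1g, which is shared with other receptors and widely expressed in myeloid cells, had 3350.7 in BBP females, 3800.3 in control females, 2513.1 in BBP males and 3540.7 in control males.

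Cd200r3 encodes an activating receptor of the CD200 receptor family found on mouse basophils and mast cells. Its signals of 23.2 in BBP females, 34.9 in control females, 33.7 in BBP males and 27.4 in control males were below the negative control median on all 4 arrays. Values at background carry no fold, and no order is read from them. Of the 5 basophil markers among the members, Mcpt8, Prss34 and Ms4a2 were above the signal minimum, and Fcer1a and Cd200r3 stayed at background.

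Kit encodes the receptor for stem cell factor, on which mast cells and hematopoietic progenitors depend. Kit had a signal of 731.7 in BBP females, against 577.5 in control females. In males it was 665.4 in the BBP pool and 512.0 in the control pool. Each BBP pool was again above the control pool of its sex, as for 19.9% of the genes analysed. The limma estimate was 0.36 ± 0.12 (SE) on the log2 scale, with a p of 0.0285 before and 0.140 after adjustment.

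Gata2 encodes a transcription factor needed for both lineages and for hematopoietic stem cells. Its signals were 63.1 in BBP females, 71.5 in control females, 67.2 in BBP males and 59.8 in control males. They stayed under the signal minimum and lay below the negative control median on 1 array, that of BBP females. Gata2 was therefore not tested, and its 4 values differed by less than those of any tested member.

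Of the 6 members above the minimum, 2 were higher in BBP in both sexes, a direction shared by 19.9% of the genes analysed. In both sexes lower were 0 of 6, against 51.6% of all genes. The pattern of lower signals in BBP females and higher signals in BBP males was found in 4 of 6, against 10.4% of all genes. A fold of at least 2 below control in both sexes was reached by 0 of 6 members and by 0.546% of all genes. limma called 0 members higher, against 1.52% of all genes, and 0 lower, against 1.29% of all genes. At an unadjusted limma p under 0.05, Cpa3 and Kit were higher and 0 members were lower. Of the 10614 genes, 627 were higher and 2244 lower at this limit. The median log2 BBP over control of the 6 members was -0.41 in females and 0.43 in males, while the 10614 genes had medians of -0.10 in females and -0.15 in males. These shares describe a small list whose members were chosen with earlier results of these data known.

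**Figure D2:**
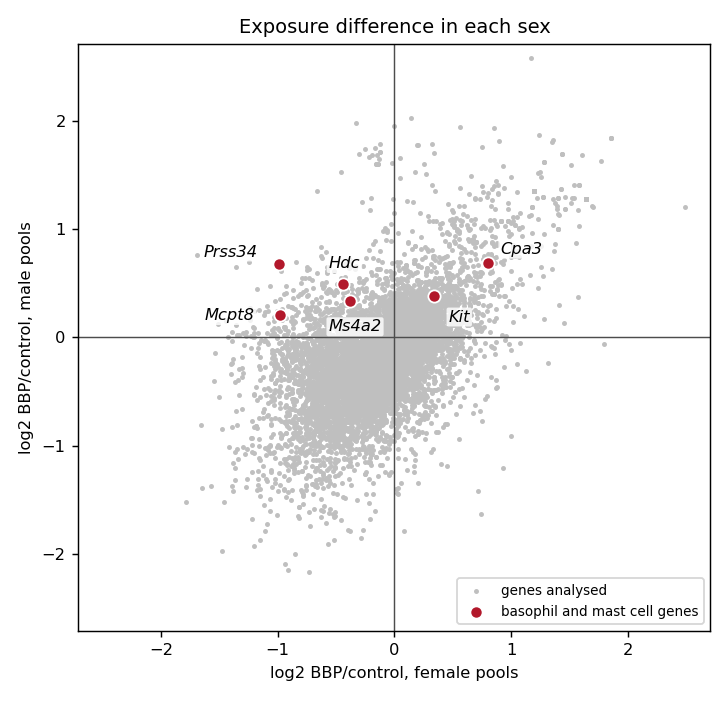
log2 BBP over control in the female pools (x axis) and in the male pools (y axis), with each grey point 1 of the 10614 genes analysed and the 6 members above the signal minimum in red. Cpa3 and Kit lie at the upper right with 19.9% of all genes, and Prss34, Mcpt8, Hdc and Ms4a2 at the upper left with 10.4%.

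Within a sex there is no replicate, and testing whether the sexes differ leaves 0 residual degrees of freedom. The opposite directions were therefore not tested. Seen within an exposure, the female over male ratio of Prss34 was 0.550 in the BBP pools and 1.75 in the control pools. For Mcpt8 the ratio was 0.521 in the BBP pools and 1.19 in the control pools. The BBP pools thus had more of both basophil proteases in males, and the control pools had more in females. Hdc had a female over male ratio of 1.03 in the BBP pools and 1.96 in the control pools, and Ms4a2 one of 0.926 in the BBP pools and 1.52 in the control pools. For these genes, the sexes differed mainly in the control pools. Cpa3 (1.20 in BBP and 1.12 in control pools) and Kit (1.10 in BBP and 1.13 in control pools) had slightly more signal in females under either exposure. The control pools held 12 females and 4 males, against 6 females and 4 males in the BBP pools.

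**Figure D3:**
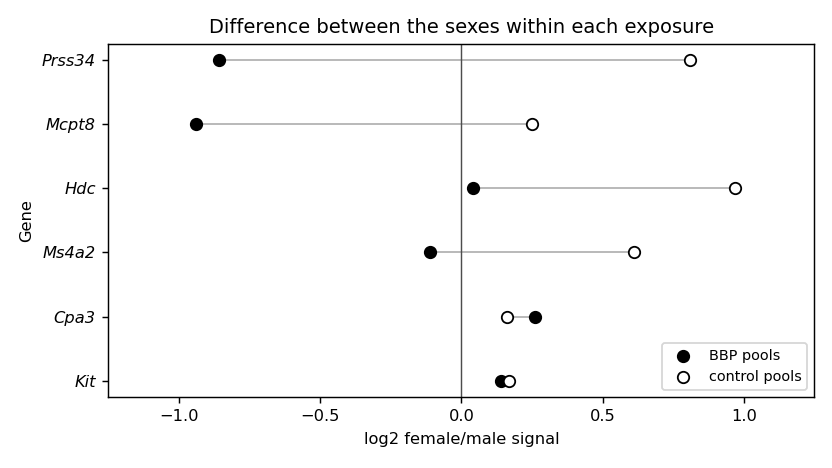
log2 female over male signal of the 6 members above the signal minimum, within the BBP pools (filled) and within the control pools (open), 1 array per sex and exposure. The points lie wide apart for Prss34, Mcpt8, Hdc and Ms4a2 and close together for Cpa3 and Kit.

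The averaged differences of the 4 genes with opposite directions depended on single pools. Without the BBP female pool, and with the sex term dropped, the log2 difference of Mcpt8 was 0.08 and that of Prss34 0.28. Without the control male pool the difference of Hdc was -0.46, and without the control female pool that of Ms4a2 was 0.28. For Cpa3 and Kit both BBP pools lay above both control pools, so that leaving out a pool could not turn the sign. Without the sex term, such a fit also takes in the difference between the sexes. Cpa3 had a difference between 0.62 and 0.88 and Kit one between 0.27 and 0.45 whichever pool was left out. Their limma adjusted p was then between 0.316 and 0.583 for Cpa3 and between 0.356 and 0.670 for Kit.

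Across the 4 arrays, profiles were compared by the Euclidean distance between log2 signals centred on each gene's mean. Among the members, Ms4a2 and Hdc were the closest pair with a distance of 0.28, followed by Cpa3 and Kit with 0.40 and by Mcpt8 and Prss34 with 0.47. Cpa3 was furthest from the proteases, with 1.42 to Mcpt8 and 1.29 to Prss34. Ms4a2 lay closest to the mean profile of the 6 members (0.17) and Cpa3 furthest from it (0.78). The 5 genes outside the members that were nearest to this mean, of 10608 ranked, were Ms4a3 (0.038), Gm13239 (0.058), Gm13141 (0.076), Ifi211 (0.085) and Os9 (0.095). Ms4a3, which is expressed by granulocyte and monocyte progenitors and by basophils, had 233.1 in BBP females, 287.0 in control females, 281.2 in BBP males and 197.4 in control males. It also lies next to Ms4a2 in the RefSeq gene order of GRCm38.p6. With only 4 points per gene, many genes come close to any profile.

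GATA motifs before the start site did not divide the members along these patterns. Of the pair that was higher in both sexes, Cpa3 held the motif and Kit did not. Of the 4 genes with opposite directions, Prss34 and Ms4a2 held it and Mcpt8 and Hdc did not.

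Several members lie in clusters of related genes, whose other members were looked at in the RefSeq gene order (GRCm38.p6). Mcpt8 lies between Mcpt4, a chymase of connective tissue mast cells, and Ctsg, the cathepsin G of neutrophils and mast cells. Mcpt4 had 373.7 in BBP females, 222.7 in control females, 258.6 in BBP males and 222.2 in control males, and so was highest in the pool where Mcpt8 was lowest. Ctsg had 366.8 in BBP females, 559.0 in control females, 435.6 in BBP males and 416.4 in control males, with the lowest value in BBP females as for Mcpt8. The mast cell protease genes Cma2, Mcpt1, Mcpt2 and Mcpt9 on the other side had signals of at most 46.7. Prss34 is followed by Prss28 and Prss29, which had signals of at most 20.5, and by Tpsb2. The tryptase Tpsb2 had 158.4 in BBP females, against 67.7 in control females, and 106.9 in BBP males, against 77.7 in control males. On one side of Cd200r3 lie Cd200r2 and Cd200r4, with signals of at most 29.7 and 47.3, and then the inhibitory receptor Cd200r1. Cd200r1 had 139.2 in BBP females, 140.1 in control females, 122.9 in BBP males and 118.0 in control males.

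The wider program was described with 6 further gene lists. Of 19 mast cell granule genes, 6 passed the signal minimum, 2 were higher in both BBP pools (Tpsb2 and Mcpt4) and 2 lower in both (Gzmb and Ndst2), and 0 passed limma. Over all genes analysed, 19.9% were higher and 51.6% lower in both BBP pools. Tpsb2 had log2 differences of 1.23 in females and 0.46 in males, with a limma adjusted p of 0.107, and Mcpt4 had 0.75 and 0.22, with 0.156. Tpsb2 passed the minimum only through the BBP pools (158.4 in females and 106.9 in males). Its control pools lay under the minimum (67.7 in females and 77.7 in males), so that its place in the count depends on the filter. Gzmb, a granzyme of cytotoxic lymphocytes that mast cells and basophils can also express, had differences of -0.88 in females and -0.66 in males (limma adjusted p 0.0609). Mast cell markers were divided by level. Tpsb2, Mcpt4 and Kit were above the signal minimum in at least 2 arrays, whereas the other 3 that had been listed as defining mast cells were at background. The chymase Cma1 had at most 45.8, the tryptase Tpsab1 at most 32.4 and the receptor Mrgprb2 at most 18.8, and 12 of the 19 were below the negative control median on all arrays.

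Of 23 basophil surface and effector genes, 22 had a cluster and 11 passed the minimum. Among these 11, 2 were higher in both BBP pools, 3 lower in both and 6 lower in BBP females and higher in BBP males, and 0 passed limma. Over all genes analysed these directions had shares of 19.9%, 51.6% and 10.4%. Among the 6, the smaller log2 difference was close to 0 for Cd63 (-0.02 in females), Cd200r1 (-0.01 in females) and Cd9 (0.01 in males). Ccl3, a chemokine of many activated leukocytes, had log2 differences of 0.18 in females and 1.53 in males. The activation marker Cd69 had 0.78 in females and 1.01 in males (limma adjusted p 0.0596). Ifitm1 had -1.02 in females and -0.29 in males, and the degranulation marker Cd63 had -0.02 in females and 0.28 in males. Which spleen cells gave these signals was not determined. The cytokine genes Il4 and Il13 had signals of at most 18.7 and 20.0, below the negative controls. Itgam and Lilrb4a, which were picked after their values were seen and are widely expressed in myeloid cells, were among the 6. Itgam had 4176.0 in BBP females, 6172.2 in control females, 4141.7 in BBP males and 2630.7 in control males. Lilrb4a had 7878.7 in BBP females, 14097.5 in control females, 10716.1 in BBP males and 6606.4 in control males.

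The genes that carry the IgE receptor signal are shared with T and B cells, and 17 of 19 passed the minimum. Of them 8 were higher and 7 lower in both BBP pools, against 19.9% higher and 51.6% lower over all genes, and 0 passed limma. Plcg1, the phospholipase of this pathway and of the T cell receptor, had log2 differences of 0.65 in females and 0.55 in males (limma adjusted p 0.0716), and the adaptor Grap2 had 0.56 in females and 0.35 in males. The adaptor Lat2 had -0.38 in females and -0.39 in males. Fcer2a, the low-affinity IgE receptor of B cells, had -1.18 in females and -0.58 in males (limma adjusted p 0.0838). Among growth factor and alarmin receptors and their ligands, 12 of 15 had a cluster, 3 passed the minimum and 0 passed limma. These were the IL-18 receptor chains Il18rap (0.46 in females and 0.49 in males) and Il18r1 (0.33 in females and 0.31 in males), and Il18 itself (-0.21 in females and -0.41 in males). The cells that gave these signals were likewise not determined. With 1 pool left out and the sex term dropped, the limma difference ran from 0.20 to 0.75 for Il18rap and from 0.04 to 0.60 for Il18r1.

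Of 19 transcription factors of the lineage, 15 passed the minimum, and 5 were higher and 7 lower in both BBP pools, against the same background shares. The only one that passed limma was Gfi1b, a repressor shared with erythroid cells and megakaryocytes, which was lower in BBP. Over all genes analysed limma called 1.29% lower. Gfi1b had 176.9 in BBP females, 359.5 in control females, 193.6 in BBP males and 490.3 in control males, a log2 difference of -1.18 ± 0.13 (SE) with a limma adjusted p of 0.0379. With 1 pool left out the difference of Gfi1b lay between -1.41 and -0.96, in a fit of 3 arrays that called 0 of all genes. Gata1 (-0.85 in females and -1.10 in males, limma adjusted p 0.0538) and Tal1 (-0.47 in females and -0.89 in males) are likewise shared with erythroid cells. Gata1 passed the minimum only through the control pools (137.1 in females and 147.9 in males). Its BBP values lay under the minimum (75.9 in females and 69.2 in males), so that its place in the count depends on the filter. The limma log2 difference of Gata1 was -0.97 with and without the filter. Its limma adjusted p was 0.133 without a filter and 0.047 with robust variances. Bhlhe40, which is also induced in activated lymphocytes, had 0.55 in females and 0.91 in males. Of 15 histamine and eicosanoid genes, 7 passed the minimum and 0 passed limma. The prostaglandin synthase Ptgs2 had 0.93 in females and 1.58 in males (limma adjusted p 0.0511), and the leukotriene genes Alox5ap and Pla2g4a had -1.06 and -0.56 in females and -0.54 and -0.34 in males. The prostaglandin-degrading Hpgd had -0.32 in females and -0.50 in males.

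**Figure D4:**
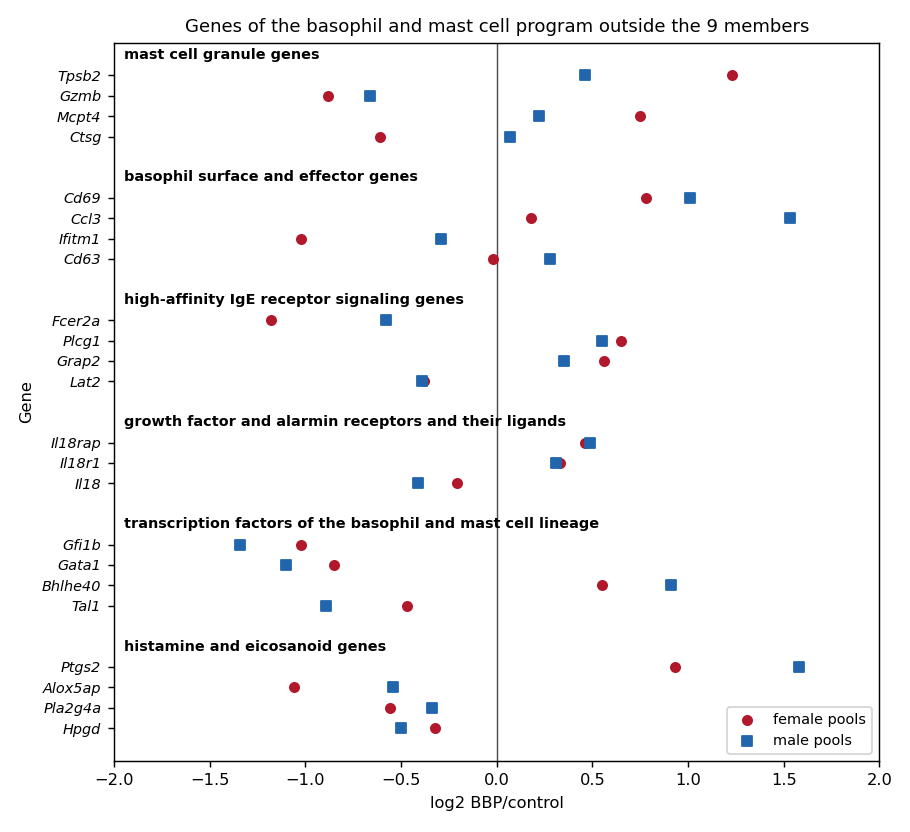
log2 BBP over control of 23 further genes of the basophil and mast cell program, in the female pools (red circles) and in the male pools (blue squares), grouped by list. Gfi1b is the only one of them that passed limma, with -1.02 in females and -1.34 in males.

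Markers of other cells differed between the same pools. Of 11 progenitor markers, 7 passed the minimum. Of these, 5 were lower in BBP females and higher in BBP males, the directions of 4 members and of 10.4% of all genes analysed. Among them, Prtn3 (log2 0.02) and Gcnt2 (0.05) had male differences close to 0. The summed signal of the 10 with a cluster was 9396.1 in BBP females, 11429.2 in control females, 8607.3 in BBP males and 5877.8 in control males. Most of this sum was the signal of 1 gene, since Mpo, the granule peroxidase of neutrophil progenitors, had 6923.1 in BBP females, 8929.3 in control females, 6309.2 in BBP males and 3874.8 in control males. The other progenitor markers with the largest mean difference were Sox4 (log2 0.68 in females and -0.02 in males), Flt3 (0.17 in females and 0.21 in males) and Gcnt2 (-0.39 in females and 0.05 in males). All 11 neutrophil markers passed the minimum, 3 of them with this pattern, against 10.4% of all genes analysed. Among the 3, Ltf (log2 -0.07) and Cxcr2 (-0.04) had female differences close to 0. The summed signal of the 11 neutrophil markers was 753124.6 in BBP females, 830361.6 in control females, 834968.3 in BBP males and 795392.7 in control males. Most of this sum was the signal of S100a8, S100a9 and Ngp. S100a8 alone had 400302.5 in BBP females, 412452.3 in control females, 412502.5 in BBP males and 412753.9 in control males. The largest mean differences were those of Retnlg (-1.50 in females and -0.55 in males), Ltf (-0.07 in females and 0.90 in males), Ngp (0.10 in females and 0.67 in males) and Csf3r. Csf3r, the receptor of the granulocyte growth factor G-CSF, had 1730.1 in BBP females, 1966.4 in control females, 1722.5 in BBP males and 949.5 in control males. Of 10 eosinophil markers 5 passed the minimum. On the arrays Alox15 and Ccr3 were lower in BBP, with limma log2 differences of -1.52 and -1.05 and adjusted p of 0.0311 and 0.0379. limma called 1.29% of all genes lower. Il5ra (-0.48 in females and -0.40 in males) and Prg2 (0.43 in females and 0.08 in males) did not pass. In the paper's RT-PCR of single animals, the difference of Alox15 was not significant and went the other way, higher in BBP. The summed eosinophil signal was 3541.0 in BBP females, 4894.5 in control females, 1847.4 in BBP males and 2860.1 in control males. All 11 erythroid markers with a cluster passed the minimum. On the arrays limma called Cldn13, Klf1, Car1 and Car2 lower in BBP, against 1.29% of all genes, with log2 differences between -1.73 and -1.34. Klf1 passed the minimum only through the control pools (173.9 in females and 213.5 in males), with 63.1 in BBP females and 74.2 in BBP males. In the paper's RT-PCR of single animals, the differences of Cldn13, Klf1 and Car1 were not significant, with Klf1 just short of it. Of the 11, 8 were lower in both BBP pools, against 51.6% of all genes. Alas2, Slc4a1 and Epb42 were higher in BBP females (log2 0.78, 0.18 and 0.17) and lower in BBP males, as were 1850 of the 10614 genes. The summed signal of the 11 was 118553.3 in BBP females, 184751.2 in control females, 126646.8 in BBP males and 299284.8 in control males. Of the markers of monocytes and macrophages (Cd163, Adgre1, Fcgr1 and Ccr2 with the largest mean differences), B cells (Ms4a1, Cr2, Blk and Cd79b), T and NK cells (Cd4, Nkg7, Cd5 and Ncr1) and megakaryocytes (Ppbp and Itgb3), 0 passed limma. With 1 pool left out the difference of Alox15 ran from -2.18 to -0.86. The part of progenitors, neutrophils, eosinophils and erythroid cells in the signals of the members was not tested.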

How the data were processed

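Total RNA of splenocytes was pooled by sex and exposure and hybridised to 4 Clariom D mouse arrays, with 26 animals in all. The authors extracted and scaled the signals with MAS 5.0, and the deposited intensity values are linear, with no log and no centring. Not given in the sources used here were the scaling target, detection calls and the genome build of the annotation. The small number of 4 arrays limits the precision.

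Of 65956 transcript clusters, 30638 carry 1 gene symbol, 2176 several and 33142 none in the platform annotation, and 29849 of 30176 symbols were found in RefSeq (GRCm38.p6). Only clusters with 1 symbol were used, and the brightest on average stood for a symbol with more than 1. The signal minimum was 100, required on 2 or more arrays, and log2 was taken without a pseudocount. limma 3.58.1 (R 4.3.3; lmFit, eBayes with trend) was fitted with exposure and sex as terms, which leaves 1 residual degree of freedom, with Benjamini-Hochberg adjustment and a threshold of 0.05. The limma step was tested on simulated data with independent noise and the same fold in both sexes. That test cannot show how limma behaves where the sexes differ. No pool is replicated, so the residual of this fit is the disagreement between the female and the male difference, moderated over all genes. Its p-values measure neither the spread between replicate pools nor that between animals. Tables and figures were made with pandas 2.3.3, numpy 2.4.6 and matplotlib 3.10.9 under Python 3.11.15.

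The members and gene lists were chosen with earlier results of these data known. By rule, the text names all 9 members, of each list the 4 measured genes with the largest absolute mean log2 difference and those that passed limma, and the 5 genes nearest in profile. Other genes were named after their values were seen, as neighbours in gene order or as examples of a stated list.

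Alternatives were quantile normalization, scaling to the same median, 50 added to each signal, no filter or a signal minimum of 200, the mean of all clusters of a symbol, no sex term, eBayes without trend or robust, and leaving out each pool with the sex term dropped (3 arrays). The counts of members higher in both sexes and of members with opposite directions were added after the data were seen.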

Additional observations from a re-analysis of the deposited data

Results flagged for a closer look

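Several genes named above had log2 BBP over control of opposite sign in the female and in the male pools. Values given here are the log2 difference of the male pools minus that of the female pools. Lower in BBP females and higher in BBP males were, among the members, Prss34 (1.67), Mcpt8 (1.19), Hdc (0.93) and Ms4a2 (0.72). Of the other genes of the program the same held for Lilrb4a (1.54), Itgam (1.22), Ctsg (0.67), Cd63 (0.30) and Cd200r1 (0.07), and of the markers of other cells for Mpo (1.07), Csf3r (1.04), Ltf (0.98), Gcnt2 (0.44) and Itgb3 (0.36). The nearest-profile genes Ms4a3 (0.81), Gm13239 (0.81), Gm13141 (0.76), Ifi211 (0.68) and Os9 (0.58), which were chosen for their likeness to the members, had it as well. Sox4 (-0.69) was higher in BBP females and lower in BBP males. These differences between the sexes were not tested, because 1 array per sex and exposure leaves 0 residual degrees of freedom. The smaller of the 2 differences was close to 0 for Ctsg (0.07 in males), Cd63 (-0.02 in females), Cd200r1 (-0.01 in females) and Sox4 (-0.02 in males). It was also close to 0 for Ltf (-0.07 in females) and Gcnt2 (0.05 in males).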

How the results depend on the processing

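limma called 0 members higher and 0 lower under every alternative. For all genes it called 161 higher and 137 lower as reported, 153 and 24 with arrays scaled to the same median, 88 and 35 with 50 added, and 0 and 0 after quantile normalization, without a filter, with a minimum signal of 200, without the sex term and without any single pool. The median log2 difference of all genes was 0.01 with arrays scaled to the same median, against -0.14 as reported, and that of the members was then -0.30 in females, 0.61 in males and 0.14 by limma. By limma the members' median was 0.00 as reported, and with 1 pool left out it lay between -0.40 (control males left out) and 0.36 (control females left out). The limma difference turned its sign for Ms4a2 (0.12) and Itgb3 (0.09) with scaling to the same median and for Hdc (-0.01) and Gm13239 (0.00) after quantile normalization. The cause of these changes was not tested.

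With 1 pool left out and the sex term dropped, limma differences that changed sign ran from -0.86 to 0.08 for Mcpt8, from -0.58 to 0.28 for Prss34, from -0.33 to 0.28 for Ms4a2 and from -0.46 to 0.51 for Hdc. Among the other named genes the ranges were 0.00 to 0.26 for Cd63, -0.03 to 0.70 for Sox4, -0.50 to 0.16 for Gcnt2, -0.43 to 0.77 for Mpo, -0.59 to 1.09 for Prg2, -0.01 to 0.85 for Ltf, -0.19 to 0.86 for Csf3r and -0.22 to 0.11 for Itgb3. The nearest-profile genes had ranges of -0.16 to 0.38 (Ms4a3), -0.22 to 0.31 (Gm13239), -0.24 to 0.28 (Gm13141), -0.22 to 0.25 (Ifi211) and -0.10 to 0.26 (Os9). The 7 named genes that passed limma as reported could not pass in the settings with 0 calls. In the others the call was lost for Ccr3 (limma adjusted p 0.0586), Car1 (0.0607) and Car2 (0.0834) with scaling to the same median, for Gfi1b (0.0504), Ccr3 (0.0504) and Car2 (0.0540) with 50 added, and for Car2 (0.0505) with robust variances, while their log2 differences stayed between -1.34 and -0.90.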
